A study of Mus musculus with 17 samples.

Results

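The genes that encode the nuclear subunits of the oxidative phosphorylation machinery were followed in mouse neural retina progenitor cells (mNRPCs). Genes were taken by symbol: the numbered Nduf a, b, c, s and v genes without Ndufa4l2, the Sdh genes a to d, and all genes whose symbols begin with Uqcr, with Cox and a digit from 4 to 8, or with Atp5. This gave 82 of the 18836 genes listed in at least 1 library. They were sorted into complex I (35 genes), complex II (4), complex III (8), complex IV (18, with Ndufa4 counted here as a subunit of that complex) and complex V (17). The rule used names only and no measured value. Atp5s, Atp5sl and Cox7a2l were kept, and placed in a complex, by symbol alone. They are better known as associated factors than as fixed subunits, and their place does not show that they act in that complex.

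mNRPCs are progenitor cells grown out of the retina of adult C57BL/6 mice and propagated as a line on coated dishes in a defined basal medium (BM) to which both bFGF and CHIR99021 were added, so that BM alone lacks both factors of the routine culture. The 17 RNA-seq libraries of polyadenylated RNA were 1 day 0 control and 1 library of each of 4 media on days 1, 3, 5 and 7. The media were BM alone, B (BM with bFGF, a fibroblast growth factor), C (BM with CHIR99021, an inhibitor of GSK3) and BC (BM with both). There were no replicates of a medium and day, and the study describes day 0 both as cells in BM and as cells before treatment.

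Oxidative phosphorylation takes place in the inner mitochondrial membrane. Complex I passes electrons from NADH, and complex II electrons from succinate, to ubiquinone. Complex III hands them to cytochrome c and complex IV to oxygen, and complex V, the ATP synthase, uses the proton gradient that complexes I, III and IV build. The complexes are built from nuclear and mitochondrially encoded subunits together, with assembly factors that do not stay in the finished complex. The mitochondrially encoded subunits were not analysed here.

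Libraries held 17571973 to 19428744 expected counts, which are estimated read numbers per gene. Levels are given as FPKM, which is scaled for gene length and for library size and can be compared between genes. Of 5 tested progenitor markers, 4 were called lower with bFGF over days 1 to 7. Pax6 ran from 42.16 to 207.22 FPKM without bFGF and from 10.71 to 82.35 with it, and Sox2 from 47.66 to 89.90 and from 29.06 to 59.48, while Rax was under 0.1 FPKM in every library. The summed level of 5 fibroblast markers was 2.68 to 55.8 FPKM without bFGF and 1.59 to 6.85 with it, and that of 5 lens markers was 1.16 to 432 against 0.07 to 0.67. Single genes made up much of these sums. Without bFGF, Col1a1 reached 45.19 FPKM but Lum at most 0.03, and Crygs reached 392.25 but Cryaa and Mip at most 0.64 and 0.12. Of 4 listed markers of Müller glia only Glul was tested. It was called higher, at 12.43 to 18.82 FPKM without bFGF and 15.48 to 32.57 with it. Aqp4 went the other way at a low level, 0.05 to 1.53 FPKM without bFGF and 0.01 to 0.13 with it. Rlbp1 reached at most 0.13 FPKM, and Slc1a3 was under 0.1 in every library. Photoreceptor, microglial, endothelial and pigment epithelial markers summed to at most 2.57 FPKM each. In bulk RNA, fewer cells of a type and less RNA per cell cannot be told apart, and the part of these other markers in the results below was not tested.

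The subunit genes were abundant on day 0, lower on day 3 in all 4 media, and closer to day 0 again on day 7 in the media with bFGF. Together they took 1.02% of the expected counts on day 0 and 0.935% to 1.06% on day 1. On day 3, BM and C held 0.614% and 0.643%, and B and BC 0.735% and 0.769%. On day 7, BM and C held 0.631% and 0.687%, and B and BC 0.886% and 0.937%. Both libraries with bFGF stood above both without it on days 3, 5 and 7, and all 4 were below day 0 on day 7. Complex V took the largest part, with 0.447% of counts on day 0 against 0.242% for complex I and 0.173% for complex IV. On day 7, complex IV took 0.124% and 0.132% in BM and C but 0.186% and 0.218% in B and BC, so that with bFGF it was above its day 0 share. For complex II the 4 media lay close together on day 7, from 0.0489% in BC to 0.0545% in B.

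**Figure D1:**
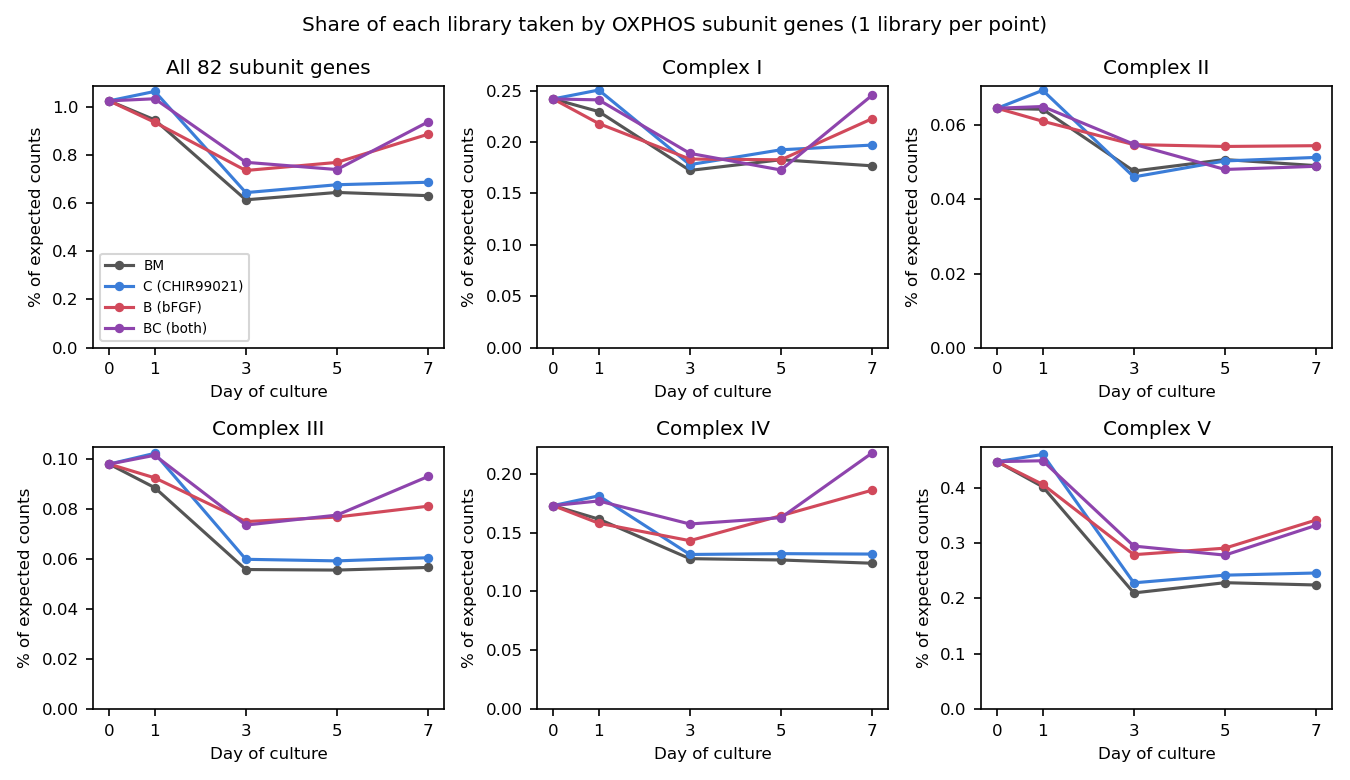
Percent of a library's expected counts that fell on subunit genes (vertical axis, from 0) by day of culture (horizontal axis), for all 82 genes and for complexes I to V. Each point is 1 library, lines join the libraries of a medium, and all start at the day 0 control. The total on day 7 was 0.631% in BM and 0.687% in C but 0.886% in B and 0.937% in BC.

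Per gene, the same course was seen on the FPKM scale. The median of the 78 tested genes differed from day 0 on day 3 by -0.73 (BM), -0.69 (C), -0.39 (B) and -0.41 (BC), in units of log2(FPKM + 1), which understates the change of low genes. On day 7 the medians were -0.61, -0.49, -0.11 and -0.04 in the same order. In BM on day 7, 12 of 78 genes lay above day 0, against 36 of 78 in BC. The same share over all tested genes was not counted, and their medians differed between these libraries. The median over all tested genes was 0.19, 0.18, -0.27 and -0.33 on day 7, so that relative to it the subunit genes stood at -0.80 and -0.67 in BM and C, and at 0.15 and 0.28 in B and BC. These are differences between single libraries, with no test.

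**Figure D2:**
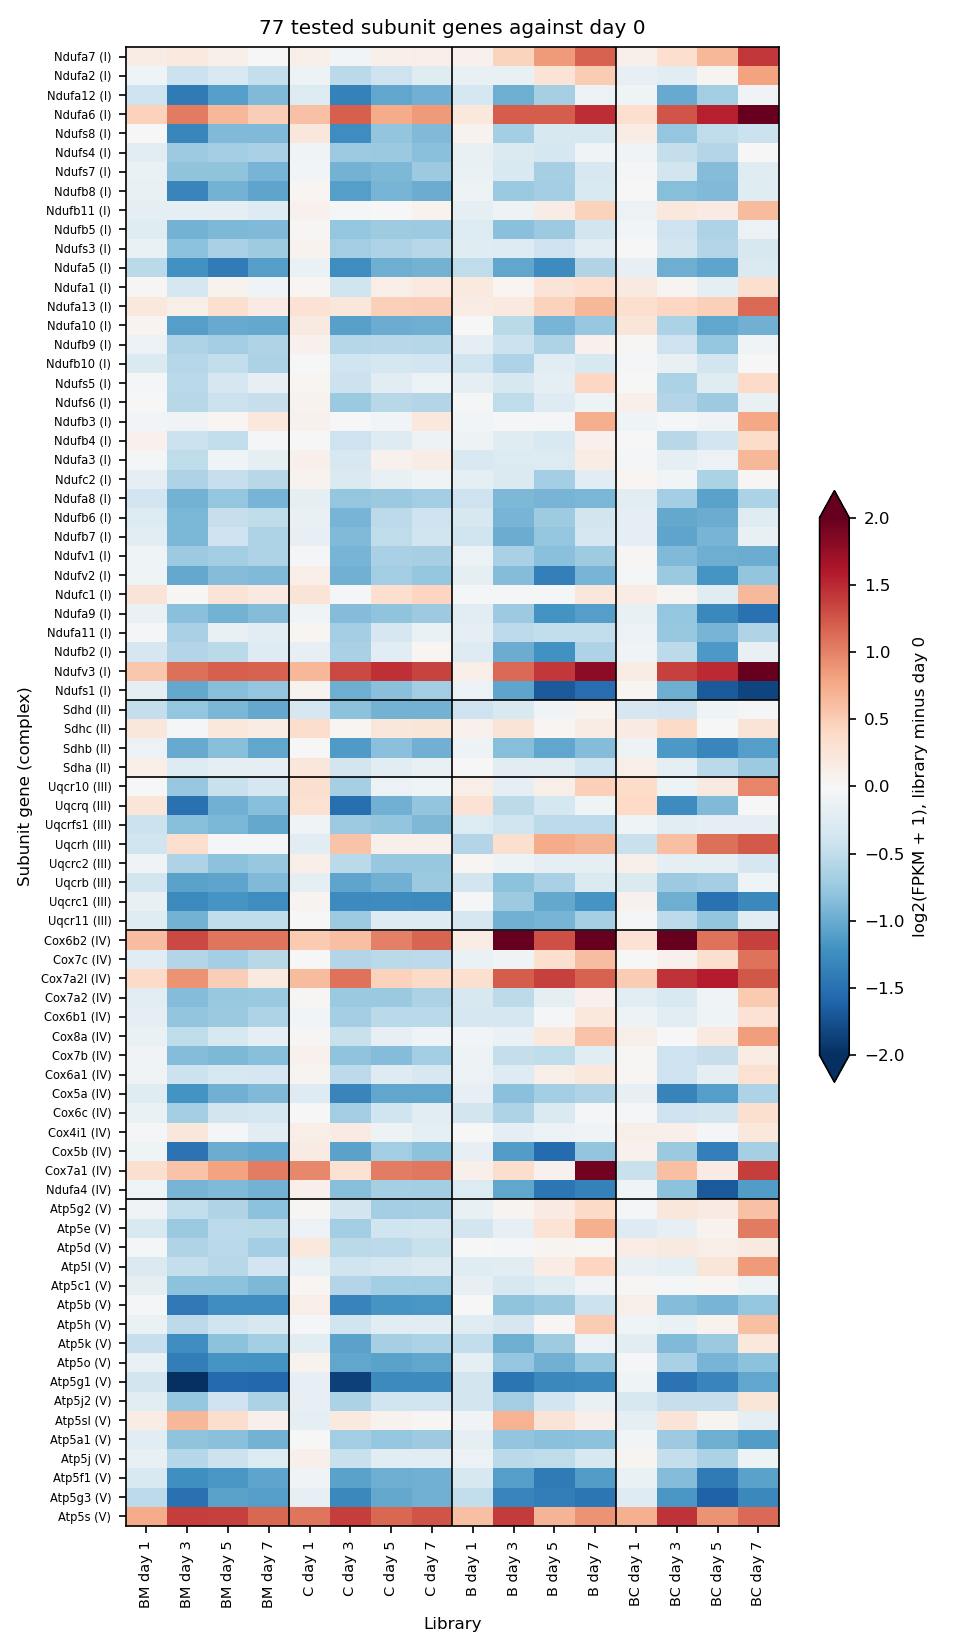
Difference of log2(FPKM + 1) from the day 0 control (colour, cut at -2 and 2) for 77 of the 78 tested subunit genes (rows, grouped by complex and ordered by the bFGF effect) in the 16 cultured libraries (columns, grouped by medium). On day 3 most rows are blue in all 4 media, and on day 7 more rows are red in B and BC than in BM and C, while Ndufs1, Ndufa9, Ndufa4 and Atp5g3 stay blue with bFGF.

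To ask which genes differed with bFGF, the rounded expected counts of the 16 cultured libraries were fitted with edgeR's quasi-likelihood test, with day, bFGF and CHIR99021 as terms. A gene needed a mean FPKM of 1 or more to enter, and p-values were adjusted (Benjamini-Hochberg) over all 11272 genes tested. Counts were scaled for composition (TMM), so that fold changes are read against the bulk of the genes. The spread in this fit is the departure of libraries from additive effects and not the spread between cultures. Of the members 78 entered, and Cox4i2, Cox6a2, Cox7b2 and Cox8b were below the limit.

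Over days 1 to 7, 61 of the 78 genes rose with bFGF and none fell, with 63 at an unadjusted p under 0.05 in edgeR and 61 higher and 0 lower in DESeq2. Of all tested genes 34.6% were called higher and 33.9% lower. The median log2 fold change was 0.48 over the members and -0.00233 over all tested genes. By complex, 25 of 35 genes of complex I were called higher (median 0.43), 3 of 4 of complex II (0.25), 7 of 8 of complex III (0.69), 11 of 14 of complex IV (0.60) and 15 of 17 of complex V (0.53). The differences between complexes were not tested, and the genes of a complex are not replicates. The number of calls depended on scaling. With library totals only, 35 members were called higher and 5 lower (among them Ndufa4 and Ndufs1), the median of the members was 0.19 and that of all tested genes moved to -0.29, while their distance was 0.48 under both scalings.

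In complex I, 32 of 35 genes had a value above 0. Its 7 core subunits, which carry the flavin, the iron-sulphur clusters and the ubiquinone site, had a median log2 fold change of 0.20, with 4 called higher, and its 28 other tested genes had 0.43, with 21 called higher. Among the core subunits, Ndufs8, an iron-sulphur protein, rose by 0.65 ± 0.12 (SE, adjusted p = 0.000632) and its neighbour Ndufs7 by 0.60 ± 0.12. Ndufv1, which binds the flavin, rose by 0.20 ± 0.07 with TMM scaling but stood at -0.09 with library totals, and it lost its call or changed sign in 7 of 25 alternatives. Ndufv2 (0.17) and Ndufs1 (-0.17) did not pass the test. The highest value in the complex was that of Ndufa7, an accessory subunit, at 0.83 ± 0.20 (adjusted p = 0.00309). Its level was 116.85 FPKM on day 0, and by day 7 BM and C stood at 117.14 and 128.23 and B and BC at 267.07 and 311.87. On days 3 to 7 no library with bFGF overlapped one without it, at 147.60 to 311.87 against 112.98 to 133.42 FPKM.

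Ndufs1, the largest core subunit and part of the arm that oxidises NADH, went the other way late in culture. Its level was 49.64 FPKM on day 0, and on day 1 the media lay close together at 43.11 (BM), 52.06 (C), 45.71 (B) and 50.95 (BC). On day 7, BM and C held 28.56 and 30.15 but B and BC 16.54 and 13.16. All 4 libraries of day 7 were thus below day 0, and both with bFGF were below both without it. In FPKM the latter held for 62.2% of all tested genes on day 7. The log2 fold change with bFGF on day 7 was -0.45 ± 0.10 (SE, edgeR adjusted p = 0.00183). Ndufv3, an accessory subunit of the NADH-binding part, was above its 38.13 FPKM of day 0 in all 16 cultured libraries and reached 87.53 and 98.94 in BM and C, and 133.50 and 163.52 in B and BC, on day 7. Its expected counts on day 7 were 1271 and 1484 in BM and C and 1373 and 1521 in B and BC, and its length in the deposited files was 817.23 and 834.21 bases against 591.66 and 544.20. With library totals Ndufv3 was at 0.10 on day 7 (edgeR adjusted p = 0.363) and was called lower over days 1 to 7 (-0.29, adjusted p = 0.0143). Deposited lengths differed by over 1.1 times between libraries in 5 of the 82 members, which were Ndufv3, Cox4i2, Cox6b2, Atp5s and Atp5sl.

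In complex II, Sdhd, a membrane anchor of succinate dehydrogenase, rose by 0.89 ± 0.17 (SE, adjusted p = 0.000913). Its level was 110.14 FPKM on day 0. On day 7, BM and C held 53.66 and 56.99, and B and BC 115.60 and 108.55. On days 3 to 7 the libraries with bFGF (84.19 to 115.60) did not overlap those without it (53.66 to 64.14). The other anchor, Sdhc, rose by 0.28 ± 0.08 and the iron-sulphur subunit Sdhb by 0.22 ± 0.08. With library totals these 2 genes stood at -0.01 and -0.07, and Sdhb lost its call in 13 of 25 alternatives and changed sign in 3 others. Sdha, the flavoprotein that oxidises succinate, did not pass the test (0.15 ± 0.08, adjusted p = 0.0827). Its day 7 levels were 87.97, 90.31, 75.91 and 60.02 FPKM in BM, C, B and BC.

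In complex III, the Rieske iron-sulphur protein Uqcrfs1 rose by 0.71 ± 0.12 (SE, adjusted p = 0.000479), the core protein Uqcrc2 by 0.69 ± 0.12 and its partner Uqcrc1 by 0.42 ± 0.09, whose call was lost in 3 of 25 alternatives. Uqcr10, a small subunit, had the highest value, 0.81 ± 0.15, and Uqcr11, another small subunit, the lowest, 0.17 ± 0.08 (adjusted p = 0.0850). Uqcrh, the hinge protein near cytochrome c1, was at 155.72 FPKM on day 0 and on day 7 at 151.73 and 167.29 in BM and C against 249.11 and 364.25 in B and BC. Uqcrc1 was at 141.19 FPKM on day 0 and at 58.80 and 57.90 in BM and C and 61.92 and 57.35 in B and BC on day 7, so that the groups overlapped on this scale.

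In complex IV, Cox7c, a small subunit found in all tissues, had the highest value of the abundant genes, 1.04 ± 0.21 (SE, adjusted p = 0.00104). It was at 230.49 FPKM on day 0, and on day 7 at 157.06 and 159.49 in BM and C against 353.86 and 491.03 in B and BC. On days 3 to 7 it ran from 218.17 to 491.03 with bFGF and from 143.89 to 159.49 without it. Cox7a2l, which joins complexes III and IV, rose by 0.84 ± 0.19 and Cox5a, a matrix-side subunit, by 0.47 ± 0.11. Ndufa4 did not pass the test over days 1 to 7 (-0.07 ± 0.08) and was called lower on day 5 (-0.35 ± 0.12, adjusted p = 0.0169). Its day 7 levels were 115.79 FPKM (BM), 138.59 (C), 86.87 (B) and 102.57 (BC), so both libraries with bFGF were lower on this scale. The same held for 62.2% of all tested genes on day 7. In the fit with TMM scaling Ndufa4 stood at 0.12 on day 7 and was not called.

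In complex V, the catalytic head rose unevenly. The beta subunit Atp5b rose by 0.68 ± 0.14 (SE, adjusted p = 0.00109), the gamma subunit Atp5c1 by 0.76 ± 0.14 and the alpha subunit Atp5a1 by 0.23 ± 0.08, where Atp5a1 stood at -0.06 with library totals and lost its call or changed sign in 10 of 25 alternatives. Atp5b was the most abundant member on day 0 at 947.04 FPKM, and on day 7 BM and C held 400.71 and 421.26, and B and BC 703.12 and 551.82. All 4 were below day 0, and both with bFGF were above both without it. The epsilon subunit Atp5e was at 217.11 FPKM on day 0 and on day 7 at 148.57 and 168.24 in BM and C and 354.37 and 447.78 in B and BC. Atp5s had the lowest value, 0.03 ± 0.10, at 2.26 to 7.89 FPKM over all libraries.

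The 3 genes Atp5g1, Atp5g2 and Atp5g3 encode the same mature c subunit, which forms the rotor ring, and differ in their import sequences. Their shares moved apart. Atp5g2 gave 33.4% of their summed FPKM on day 0, 40.0% in BM and 39.4% in C on day 7, and 63.1% in B and 63.6% in BC. Atp5g3 gave 47.1% on day 0, 46.2% and 45.5% in BM and C on day 7, and 25.2% and 24.5% in B and BC. In FPKM, Atp5g2 was at 304.68 on day 0 and on day 7 at 172.08 and 191.13 in BM and C, against 395.86 and 455.78 in B and BC. Atp5g3 was at 429.96 on day 0 and at 198.75 and 220.47 in BM and C, against 158.04 and 175.46 in B and BC. Its libraries with bFGF were thus the lower ones in FPKM, as they were for 62.2% of all tested genes on day 7. In the fit with TMM scaling Atp5g3 stood at 0.21 on day 7 and was not called. Atp5g1 was at 178.05 FPKM on day 0 and between 59.52 and 85.73 in all 4 libraries of day 7. The log2 fold change over days 1 to 7 was 0.93 ± 0.20 for Atp5g2 (SE, adjusted p = 0.00149), 0.53 ± 0.09 for Atp5g1 (adjusted p = 0.000575) and 0.13 ± 0.07 for Atp5g3 (adjusted p = 0.141). The difference between the 3 genes was not tested, and reads from their like coding stretches may have been split between them in the authors' estimate.

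**Figure D3:**
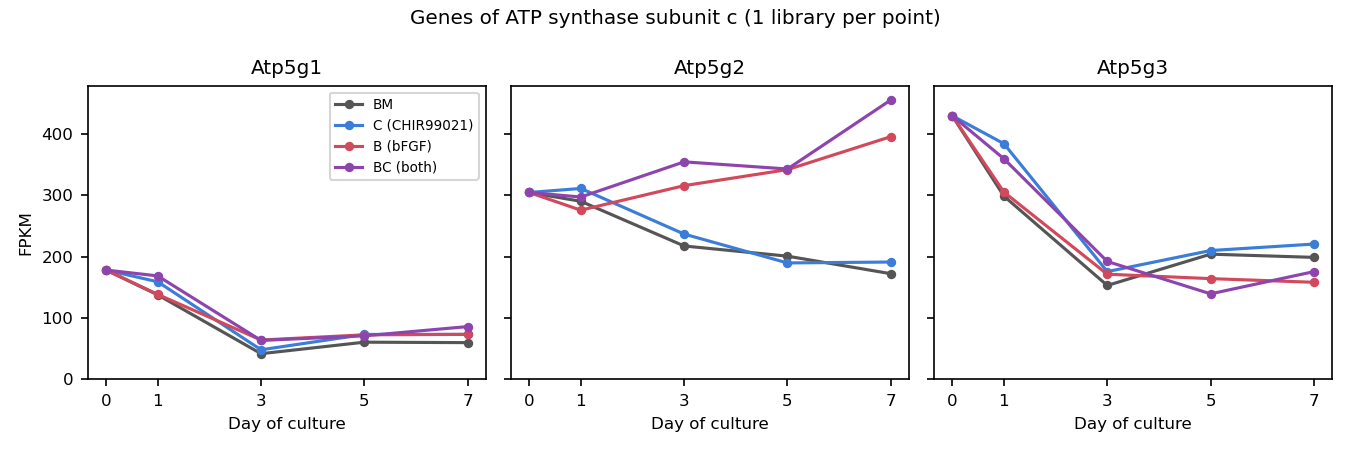
FPKM (vertical axis, from 0) of Atp5g1, Atp5g2 and Atp5g3 by day of culture (horizontal axis). Each point is 1 library, and the lines of the 4 media start at the day 0 control. Atp5g2 separates by bFGF from day 3 on and reaches 395.86 in B and 455.78 in BC, while Atp5g3 lies at 429.96 on day 0 and between 158.04 and 220.47 on day 7 in all 4 media.

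The promoters of these genes were read for short motifs, since subunit genes are known targets of the factors NRF1, GABP and YY1. RefSeq windows from 250 bases before to 50 after the start site (GRCm38.p6) were found for 69 of the 82 members. CGCATGCG, the inner part of the NRF1 site, searched on both strands like the others, lay in the windows of 9 members (13.0%), against 4.62% of the tested genes with a window and 2.07% of all 27025 genes with one. This short form was taken after a longer one, with G before it and C after it, had been searched and its counts seen. The longer form lay in 5 members (7.25%: Atp5g2, Atp5k, Cox6a1, Ndufa11 and Uqcrc1), against 2.45% of the tested genes and 1.07% of all. CCGGAAG, the core of the ETS sites that GABP binds, lay in 16 (23.2%, against 21.6% and 9.93%), and AAGATGGC, a YY1 motif, in 11 (15.9%, against 5.58% and 3.19%). The cyclic AMP element TGACGTCA lay in 4 (5.80%, against 3.74% and 2.03%), the E-box CACGTG in 7 (10.1%, against 11.9% and 8.09%) and TATAAA in 7 (10.1%, against 8.28% and 15.7%). None of these motifs contains another. The stretches of 30 bases that follow show 5 of the 9 NRF1 matches, among them the c subunit gene that rose most and the 2 matched genes that were not called, and then a motif of each of the other c subunit genes and of Sdhd. They run 5′ to 3′ on the gene's strand with the motif in capitals.
Atp5g2 (NRF1, chr15:102671070-102671099, minus strand): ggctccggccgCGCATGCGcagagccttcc
Atp5k (NRF1, chr5:108434430-108434459, minus strand): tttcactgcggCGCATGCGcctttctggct
Ndufa8 (NRF1, chr2:36049329-36049358, minus strand): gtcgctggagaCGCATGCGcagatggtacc
Uqcr11 (NRF1, chr10:80406808-80406837, minus strand): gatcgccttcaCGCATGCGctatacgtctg
Ndufa11 (NRF1, chr17:56717692-56717721, plus strand): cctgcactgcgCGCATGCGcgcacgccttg
Atp5g1 (E-box, chr11:96075658-96075687, minus strand): agggactccgaaCACGTGggtgggggagct
Atp5g3 (E-box, chr2:73911547-73911576, minus strand): acccctgcctggCACGTGcaaggagcgagg
Sdhd (ETS, chr9:50603877-50603906, minus strand, reverse complement of the core): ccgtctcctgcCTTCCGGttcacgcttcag
In Atp5g2 the motif begins 41 bases before the start site, and no NRF1 match was found in the windows of Atp5g1 or Atp5g3. Of the 9 genes with the NRF1 motif, Atp5g2, Atp5j, Atp5k, Atp5l, Cox6a1, Ndufa8 and Uqcrc1 were called higher with bFGF, and Uqcr11 and Ndufa11 were not. This is 77.8% of them, against 78.2% of all tested members, and Atp5j (-0.06) and Ndufa8 (-0.04) were below 0 with library totals. A match is a run of letters and not a shown binding site.

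Subunits with forms for particular tissues were low. Cox4i2, a form of the cytochrome oxidase subunit known from lung and low oxygen, was at 0.12 FPKM on day 0 and at most 0.08 in the 8 libraries without bFGF, and at 0.80 to 1.70 in the 6 libraries with bFGF of days 3 to 7. These groups did not overlap, with 12 to 22.05 expected counts against 0 to 3, but they leave out B and BC of day 1. There B held 0.08 FPKM (3 expected counts), inside the range without bFGF, and BC 0.25 (10 expected counts). The deposited length of Cox4i2 was 2150 bases in BC on day 1 and 727 to 978.09 with bFGF on days 3 to 7. A greater length lowers FPKM at the same counts. Cox4i2 gave at most 0.3% of the summed FPKM of Cox4i1 and Cox4i2 on day 7. Cox6a2, the heart and muscle form, was at 0.52 to 2.02 FPKM with bFGF on days 3 to 7 and at 0 to 0.17 without it, but on day 1 it was at 1.21 and 2.12 in BM and C and at 2.27 and 2.68 in B and BC. Without the filter on low values, the edgeR adjusted p over days 1 to 7 was 0.000202 for Cox4i2 and 0.00431 for Cox6a2, and Cox8b and Cox7b2 were listed in at most 2 libraries each. The general form Cox4i1 was at 335.81 to 460.78 FPKM over the cultured libraries.

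The effect of bFGF was then fitted for each day, with CHIR99021 kept as a term. On day 1, 1 of 78 genes was called, Ndufv3, which was lower with bFGF (-0.48 ± 0.10, adjusted p = 0.0151), with 3 at an unadjusted p under 0.05 and 10.7% of all tested genes called. Without BM day 1 or without BC day 1, 0 members were called on that day. On day 3, 44 members rose, beside 25.4% of all tested genes called higher and 25% lower. On day 5, 54 rose and 3 fell (Ndufs1, Ndufb2 and Ndufa4), beside 37.2% higher and 38.6% lower, and with library totals 27 rose and 21 fell. On day 7, 69 rose and Ndufs1 fell, beside 38.8% higher and 39.6% lower, and with library totals 52 rose and 7 fell. The median over the members went from 0.04 on day 1 to 0.31, 0.51 and 1.03 on days 3, 5 and 7. On day 7 it was 0.92 in complex I, 0.55 in complex II, 1.17 in complex III, 1.30 in complex IV and 1.12 in complex V. Among the genes not called on day 7 were Ndufa9, Ndufb2, Sdha, Ndufa4, Atp5g3 and Atp5s.

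**Figure D4:**
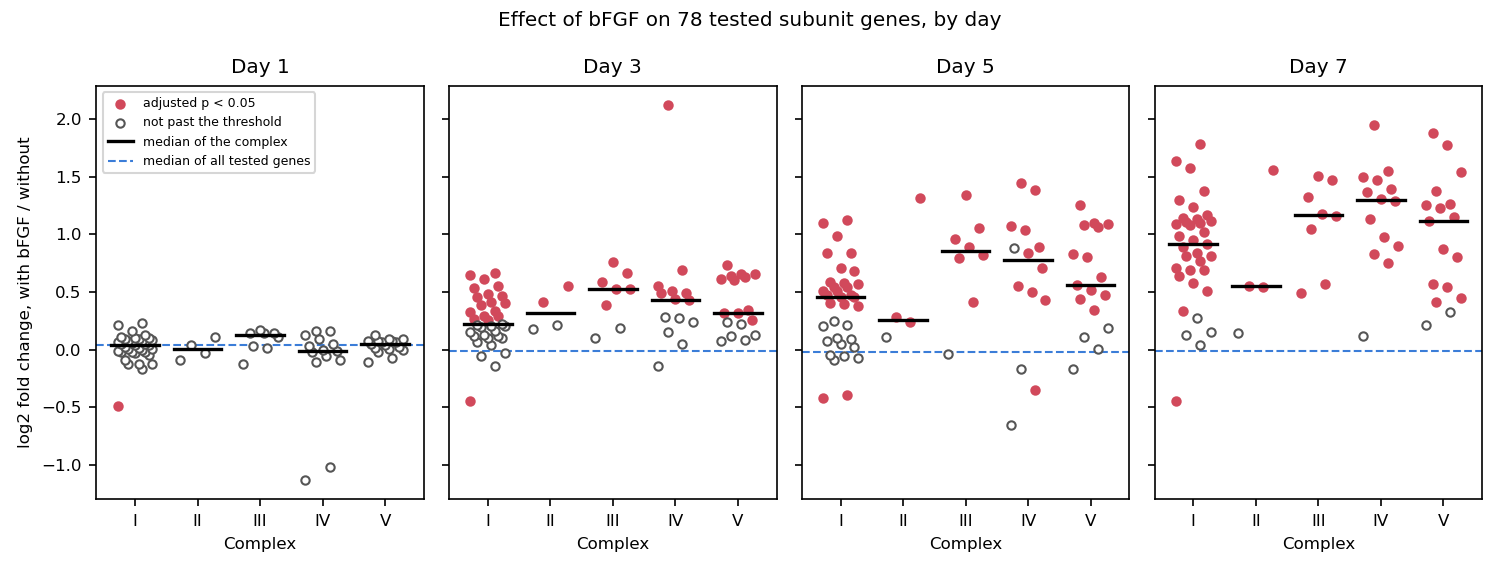
Log2 fold change with bFGF against without it (vertical axis, TMM scaling) for the 78 tested subunit genes, by complex (horizontal axis) on days 1, 3, 5 and 7. Filled points passed an adjusted p of 0.05, open points did not, black bars are the medians of the complexes and the dashed line is the median of all tested genes. The median of the members is 0.04 on day 1 and 1.03 on day 7, and 1 filled point stays below the line on day 7, Ndufs1.

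The same comparison read directly from FPKM showed fewer genes apart. On day 7 both libraries with bFGF were above both without it for 55 of 78 genes, where 24.8% of all tested genes were, and below for 10, where 62.2% were. Over days 3 to 7, all 6 libraries with bFGF were above all 6 without it for 21 members, against 11.9% of all tested genes. These were 7 genes of complex V, 6 of complex I, 5 of complex IV, 2 of complex III and 1 of complex II.

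The difference between the bFGF effects of day 7 and day 1 was tested in the same fit. It was past the threshold in 68 of 78 genes, higher on day 7 in 67 and lower in Ndufs1, where 31.3% of all tested genes were called higher on day 7 and 34.1% lower. The median difference was 1.02 over the members. Without bFGF, 54 members fell from day 1 to day 7 and 4 rose (Ndufv3, Cox6b2, Atp5s and Uqcrh), beside 31.5% of all tested genes called lower and 32.3% higher. The median was -0.42, from -0.34 in complex I to -0.68 in complex V, and Atp5b fell by 1.28. With bFGF, 49 rose and 14 fell, beside 35.8% called higher and 39.5% lower, with a median of 0.48. The 14 that fell included Ndufs1 (-1.27 ± 0.11), Uqcrc1 (-0.83 ± 0.14), Ndufa4 (-0.62 ± 0.12) and Atp5g3 (-0.55 ± 0.12). With library totals the split with bFGF was 30 higher and 25 lower, at a median of 0.05, and without bFGF it was 4 higher and 51 lower.

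CHIR99021 gave no call by edgeR. Of the 78 genes, 0 passed the threshold over days 1 to 7, 5 had an unadjusted p under 0.05, and DESeq2 called 1, Uqcr11 (0.30 ± 0.09, adjusted p = 0.0325). Of all tested genes 0.337% were called. The fitted values lay above 0 for 61 of 78 genes, with a median of 0.11, and ran from -0.33 to 0.30. Over all tested genes, 5938 of 11272 lay above 0, with a median of 0.01. For the interaction of bFGF and CHIR99021, 0 members were called by edgeR or DESeq2, beside 0.00887% of all tested genes by edgeR. In edgeR, 0 members had an unadjusted p under 0.05. Both fits held the same bFGF term for all days, so the change of the bFGF effect between days counted as spread. Their coefficients of variation were 24.7% and 25.4%, against 10% in the fit with a bFGF term for each day. CHIR99021 was not tested in that last fit, and the lack of calls does not show a lack of effect.

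Genes around the subunits did not all follow, beside 34.6% of all tested genes called higher and 33.9% lower with bFGF over days 1 to 7. Of 48 assembly factors, 9 rose (18.8%) and 14 fell (29.2%), with a median of -0.01. Both directions were found among factors of complexes I, III and IV. Among those of complex II, Sdhaf4 (-0.76), Sdhaf1 (-0.62) and Sdhaf2 (-0.26) fell, and Sdhaf3 (0.53) was not called. Among those of complex V, Tmem70 (-0.21) fell, and Atpaf1 and Atpaf2 were not called. Among factors of complex IV, Coa7 (-1.50) and Coa4 (-1.01) fell while Pet117 (1.29) and Cox14 (0.72) rose. Coa7 and Pet117 were low, at a mean of 2.38 and 1.31 FPKM over all libraries. The call of Pet117 was marginal (SE 0.54, edgeR adjusted p = 0.0471), and it was not called on day 7. Among those of complex I, Tmem126b (-0.51) and Ndufaf1 (-0.41) fell while Ndufaf6 (0.99) and Ndufaf5 (0.68) rose, and among those of complex III, Lyrm7 (-0.91) and Uqcc3 (-0.71) fell while Uqcc2 (0.76) rose. Of 14 partners, 9 rose (64.3%) and 2 fell (14.3%), with a median of 0.39. The electron carrier cytochrome c, Cycs (0.65), and the acyl carrier Ndufab1 (0.66) were among the higher, and the fatty acid electron carriers Etfb (-0.33) and Etfdh (-0.25) were lower. Of 18 genes of the TCA cycle and its entry, 12 rose (66.7%) and 2 fell (11.1%), with a median of 0.24. Idh3b was at 0.85 and Cs, citrate synthase, at 0.59, against Ogdh at -0.50. Of 13 tested regulators of mitochondrial biogenesis, 5 rose (38.5%) and 4 fell (30.8%), which is near the shares of all tested genes, with a median of 0.17. Ppargc1b (0.62), Gabpb1 (0.58), Yy1 (0.52), Gabpa (0.42) and Nrf1 (0.37) were higher. Peo1 (-0.86), the helicase of mitochondrial DNA, Tfam (-0.40), which packs that DNA, its polymerase Polg (-0.26) and the RNA polymerase Polrmt (-0.25) were lower.

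The groups set beside the subunit genes had medians on both sides of theirs. Of 77 mitochondrial ribosomal protein genes 45 rose and 6 fell (median 0.29), of 20 glycolysis genes 17 rose and 2 fell (median 0.78), and all 77 tested cytosolic ribosomal protein genes rose (median 1.39). The cytosolic ribosomal protein genes took 2.09% and 2.39% of counts in BM and C on day 7 and 7.00% and 9.28% in B and BC. Differences between these groups and the subunit genes were not tested.

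Short genes as a class were higher with bFGF, and most subunit genes are short. The median length in the deposited files was 710.5 bases over the 78 tested members and 2818 over all tested genes. Under 750 bases, the median log2 fold change was 0.48 over 44 members and 0.55 over 327 other genes. From 750 to 1500 bases it was 0.53 over 19 members and 0.22 over 1597 others, and at 1500 bases or more 0.22 over 15 members and -0.06 over 9270 others. The share called higher under 750 bases was 77.3% of the members and 61.2% of the others. On day 7 the medians under 750 bases were 1.12 and 1.19. The part of length, or of what goes with it, in the bFGF result was not tested.

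**Figure D5:**
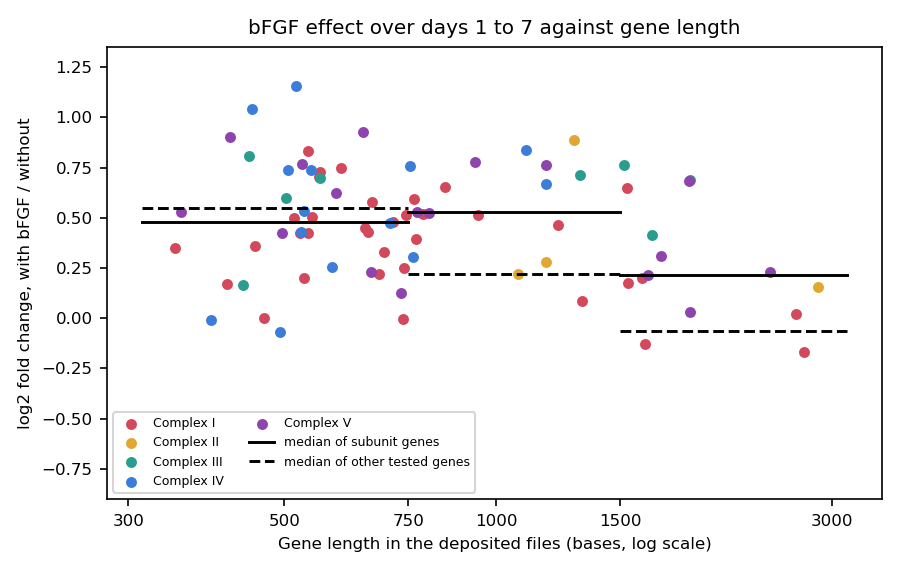
Log2 fold change with bFGF over days 1 to 7 (vertical axis, TMM scaling) against gene length in bases (horizontal axis, log scale) for the 78 tested subunit genes, coloured by complex. Solid lines are the medians of the subunit genes and dashed lines those of the other tested genes in 3 length classes. Under 750 bases the solid line (0.48) lies below the dashed one (0.55), and above 750 bases it lies above.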

How the data were processed

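The authors mapped BGISEQ-500 reads to the mouse genome. The submitters' processing notes name Bowtie2, RSEM and mm10, while the study's methods name Bowtie 2 and eXpress; versions are not given in the sources used here. The authors deposited, per gene and library, an expected count (reads as estimated, not always whole), an FPKM value and a length. The lowest FPKM listed is 0.01, and genes missing from a file were set to 0. Expected counts were rounded and tested in edgeR 4.0.16 (limma 3.58.1, R 4.3.3) with TMM scaling, a minimum mean FPKM of 1 and an adjusted p of 0.05. Model 1 had day, bFGF and CHIR99021 as terms (10 residual degrees of freedom), and model 2 a bFGF term for each day (7). Day 0 entered no fit. Without replicates the p-values measure departures from additive effects, not the spread between cultures. All 82 members and the lists were chosen with earlier results of these data known. Genes named in the text are core subunits, isoform groups, the extremes of each complex and genes called against the rest, and others with values were chosen after their values were seen. In simulated data for the bFGF effect over days 1 to 7, with 200 changed genes among 11272, 100% of changes of 1 on the log2 scale were recovered and 7 other genes were called. The simulation had no day effects, as many rises as falls, and a smaller spread than the coefficient of variation of 24.7% estimated in model 1. It therefore checks that the fit runs correctly but gives no error rate for these data. Alternatives were RLE scaling, library totals, other filters, DESeq2 1.42.0, limma on log2(FPKM + 1) or log2(FPKM + 0.1), no day 1, no CHIR99021 term and each library left out. Python 3.11.15, numpy 2.4.6, pandas 2.3.3 and matplotlib 3.10.9 handled tables and plots. Promoter windows were RefSeq's, on GRCm38.p6, which is the mm10 assembly. A few single-gene results are not reported here.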

Additional observations from a re-analysis of the deposited data

Results flagged for a closer look

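The effect of bFGF differed between day 7 and day 1 by the test of that difference in edgeR, which 68 of the 78 tested subunit genes passed. Cox6b2, the testis form of a cytochrome oxidase subunit, had the largest difference, 2.52 (SE 0.76, adjusted p = 0.0111), at only 0.23 to 4.89 FPKM over the cultured libraries. Cox7a1, the heart and muscle form of another, differed by 2.42 (SE 0.55, adjusted p = 0.00197), also at a low level of 0.88 to 8.78 FPKM. Atp5e, an abundant gene of the ATP synthase, differed by 1.91 (SE 0.17, adjusted p = 2.09e-06). Ndufs1 was the only member whose bFGF effect was lower on day 7 than on day 1, at -0.55 (SE 0.15, adjusted p = 0.00521).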

How the results depend on the processing

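The comparisons rest on single libraries of like depth. With library totals only, 40 members were called for bFGF over days 1 to 7, and with DESeq2 1 was called for CHIR99021. On day 1, 2 members were called for bFGF by limma on log2(FPKM + 0.1), and 0 to 1 with each library left out. Other totals of calls, higher and lower together, stayed within 1.5 times of the values above under all alternatives run, while their split moved with library totals as given there. With each library left out they ran from 51 to 65 for bFGF over days 1 to 7, from 34 to 48, 48 to 59 and 69 to 72 on days 3, 5 and 7, and from 64 to 70 for the difference between days 7 and 1. From day 1 to day 7 they ran from 45 to 61 without bFGF and from 56 to 67 with it, and were 0 for CHIR99021 and for the interaction by edgeR.

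The medians of complexes I to V with bFGF moved with scaling. With library totals they were 0.14, -0.0403, 0.40, 0.31 and 0.24, with limma on log2(FPKM + 1) 0.13, -0.0402, 0.40, 0.30 and 0.23, and with limma on log2(FPKM + 0.1) 0.13, -0.0409, 0.40, 0.31 and 0.24. Without day 1 they were 0.56, 0.33, 0.88, 0.78 and 0.68. Against the median of all tested genes, the members' difference from day 0 on day 7 was -0.80 in BM and -0.67 in C, and turned to 0.15 in B and 0.28 in BC.

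With library totals 19 of the 78 tested members turned from above 0 to below it, 7 of which had been called (Atp5a1, Atp5f1, Atp5j, Ndufa8, Ndufv1, Sdhb and Sdhc). Of the core subunits and the other named genes followed through every alternative, these changed sign under library totals, limma on log2(FPKM + 1) and limma on log2(FPKM + 0.1): Ndufv1 to -0.0905, -0.0927 and -0.0949, Sdhb to -0.0688, -0.0696 and -0.0708, Sdhc to -0.0117, -0.0108 and -0.0109, and Atp5a1 to -0.0587, -0.0632 and -0.0638. Atp5s turned to -0.26 with library totals and to -0.22 and -0.26 under limma, and Sdha, Ndufv2, Uqcr11 and Atp5g3, not called under TMM, were also below 0 with library totals. These alternatives leave out the composition scaling by construction. For the counts on day 1 and for CHIR99021 the cause was not tested. The alternatives for days 3 and 5 and for the interaction were chosen after seeing the data. The libraries carry no replicate numbers, and day, which sets libraries with and without bFGF side by side, was a term in the fits.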

Other observations

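Some member genes had higher values in culture than on day 0 whatever the medium. Ndufa6, an accessory subunit of complex I, was at 63.53 FPKM on day 0 and at 73.89 to 258.46 in the 16 cultured libraries. Cox7a2l was at 76.47 FPKM on day 0 and at 88.12 to 229.82 in culture, and Atp5s was at 2.26 and then 3.93 to 7.89. All 16 cultured libraries lay above day 0 for these 3 genes and for Ndufa13, Ndufv3 and Cox6b2. The share of all tested genes for which this held was not counted. On day 7 the median difference of all tested genes from day 0, in log2(FPKM + 1), was 0.19 in BM and 0.18 in C. It was -0.27 in B and -0.33 in BC. Deposited lengths of Ndufv3, Cox6b2 and Atp5s differed between libraries, which also moves their FPKM. The day 0 control is 1 library, so these differences have no test.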
